A study of Populus tremula x Populus tremuloides with 12 samples.

Results

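In leaves of hybrid poplar, 164 of 33975 listed genes had lower transcript levels after a week in sunlight than in the greenhouse, in wild-type and in transgenic plants alike. They are described here as the genes lowered by sunlight in both genotypes. All had enough reads to be among the 22959 genes tested. They were chosen on measured values, namely their sunlight and genotype differences in these same 12 libraries, so those differences describe the genes. Counts of the genes that also pass a model's threshold are given further on as description, and nothing is read from them.

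The plants were hybrid poplar, Populus tremula x Populus tremuloides. Wild-type plants (WT) were compared with plants transformed with the overexpression vector pMDC32 carrying MYB165 (OE), and the clone used for transformation was INRA 353-38. Every plant spent 1 month in a mist chamber after tissue culture and then 2 months in a greenhouse. The WT and OE greenhouse groups were sampled from there, and the WT and OE sunlight groups after 1 further week outdoors. There were 4 groups of 3 libraries, each library from its own plant and named here by its number in the labels: 1, 3 and 5 for greenhouse and 2, 4 and 6 for sunlight. Values of a gene are always given in that order, and "indoors" and "outdoors" stand for greenhouse and sunlight. Leaves at positions 7 to 10 were taken. The sources used here do not say how many transgenic lines the OE plants represent. The outdoor plants were also a week older and at another site, and these differences and sunlight cannot be told apart. In RNA from whole leaves, fewer cells of a type and less RNA per cell cannot be told apart.

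A leaf that moves from a greenhouse into open sun receives more light, including ultraviolet light that glass holds back, and adjusts the genes it expresses over hours to days. Plants commonly raise protective phenolic compounds and pigments and lower part of the light-harvesting apparatus under such conditions. MYB165 belongs to the MYB family of transcription factors, and in poplar it is known to repress genes that make flavonoids and other phenylpropanoids. The deposited files pair no gene ID with a name, so the 164 genes are given by ID without a function, and neither MYB165 nor markers of leaf cell types were analysed here.

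Levels are given in CPM, read counts scaled to a common total by the trimmed mean of M values (TMM). CPM are not divided by gene length, so between genes they compare reads and not transcripts. Differences are between group means of log2(CPM + 0.5), and a fold change is such a difference turned back to a ratio, which understates the change of genes at low CPM. Of all listed genes, 20320 had a mean of at least 2 CPM in some group. Of those, 422 were at least 2-fold lower in sunlight on average over the genotypes, and 392 of these also fell by at least 0.5 (log2) in each genotype. In 208 of the 392, all 3 sunlight libraries lay below all 3 greenhouse libraries in WT and again in OE. The last clause asked for a difference between OE and WT under 1 (log2) in both conditions and left the 164 genes.

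Other genes missed the rule by a single clause. Only the OE limit kept out 44 genes, whose median difference was -1.51 (log2) and whose lowest was -4.59. Overlap between libraries alone kept out 110, the size of the mean fall alone 269, and the level of 2 CPM alone 7. Just inside the limit on the mean fall lay Potra001417g12012, Potra000397g01855 and Potra000803g06376, at -1.010, -1.008 and -1.003 (log2). Just outside lay Potra000154g00549, Potra002456g18616 and Potra002041g15952, at -0.999, -0.998 and -0.996. The limit thus cuts through a continuous range of values.

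The libraries carried between 5870132 and 27711999 gene counts, of which the 164 genes took between 23136 and 188531. OE greenhouse 3 stood apart from OE greenhouse 1 and 5, with a chi-square over degrees of freedom of 64.2 and 70.3 across genes, against 21.3 between those. Reads outside genes made up 32.2% in WT greenhouse 5, while WT greenhouse 1 and 3 had 7.05% and 16.4%. Without OE greenhouse 3, the OE fall moved by more than 1.5 times in 9 of the 164 genes and its median went from -1.33 to -1.19 (log2). Without WT greenhouse 5, the WT fall moved that far in 2 genes and its median went from -1.25 to -1.26. Values without these libraries are given below for some of the named genes. The 2 genes whose WT fall moved that far without WT greenhouse 5 are not among them.

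Summed over the 164 genes, WT greenhouse libraries held 8994, 9127 and 9026 CPM and WT sunlight libraries 3274, 3910 and 4143 CPM. The OE greenhouse libraries held 8862, 14282 and 9000.1 CPM, and the OE sunlight libraries 3692, 4035 and 3863 CPM. Every greenhouse sum was above every sunlight sum, a direction that the choice of genes sets. OE greenhouse 3 had the highest sum of the 12, and the other OE greenhouse libraries lay near those of WT. As group means, the sums were 9049 ± 69.7 CPM in WT greenhouse, 3776 ± 450.2 in WT sunlight, 10715 ± 3090.3 in OE greenhouse and 3863 ± 171 in OE sunlight (SD, n = 3 each).

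**Figure D1:**
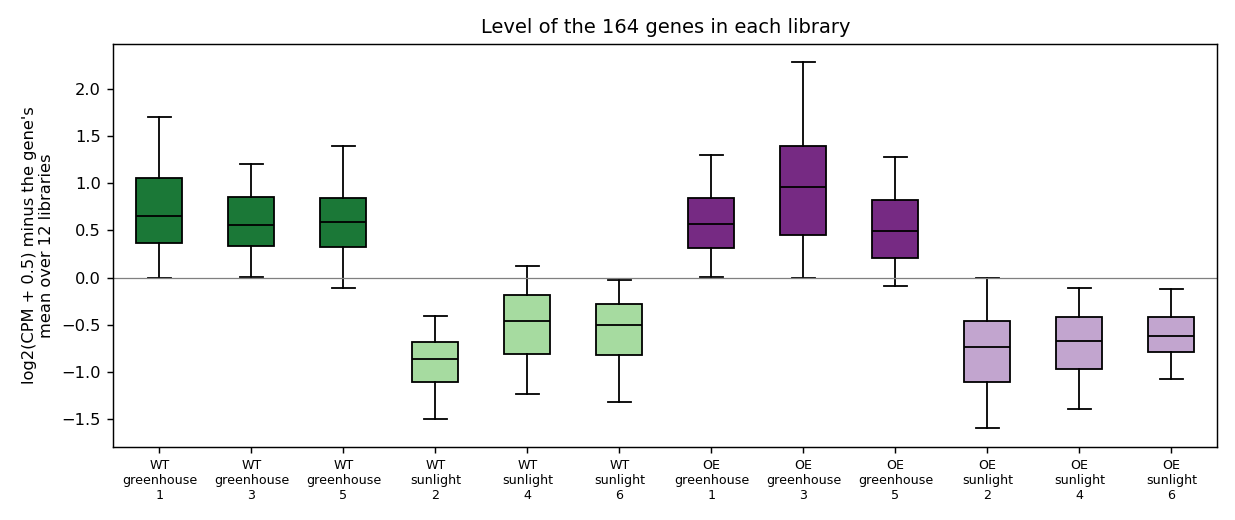
Box plots of the 164 genes in each of the 12 libraries, as log2(CPM + 0.5) minus the gene's own mean over all libraries. Boxes span the quartiles, lines mark the medians and whiskers the 5th to 95th percentiles. Greenhouse boxes lie above 0 and sunlight boxes below it, with OE greenhouse 3 highest and WT sunlight 2 lowest.

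The falls were mostly moderate. The difference in WT ranged from -3.16 to -0.56 (log2) with a median of -1.25, and in OE from -3.56 to -0.65 with a median of -1.33, beside medians of 0.01 and -0.01 over all tested genes. Averaged over the genotypes, 11 genes fell at least 4-fold, 29 fell between 2.83-fold and 4-fold, and 124 fell less than that. In 107 genes the fall was at least 2-fold in both genotypes. Of the remainder, 28 fell under 2-fold in WT and 29 under 2-fold in OE. The spread of levels was wide: the group mean in WT greenhouse ran from 0.968 to 754.8 CPM over the genes, with a median of 17.6 CPM, and the median was 6.60 CPM in WT sunlight. In OE the medians were 17.5 CPM indoors and 6.13 CPM outdoors. The median difference was -1.32 in 58 genes under 10 CPM in the greenhouse, -1.22 in 78 genes from 10 to 100 CPM and -1.27 in 28 genes above that. The rule asked for a mean fall of at least 2-fold and the pseudocount shrinks falls at low CPM, so no relation to level is read from these medians. In sunlight 16 genes averaged under 1 CPM in WT and 22 in OE, but none was at 0 in all 3 libraries of a group.

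**Figure D2:**
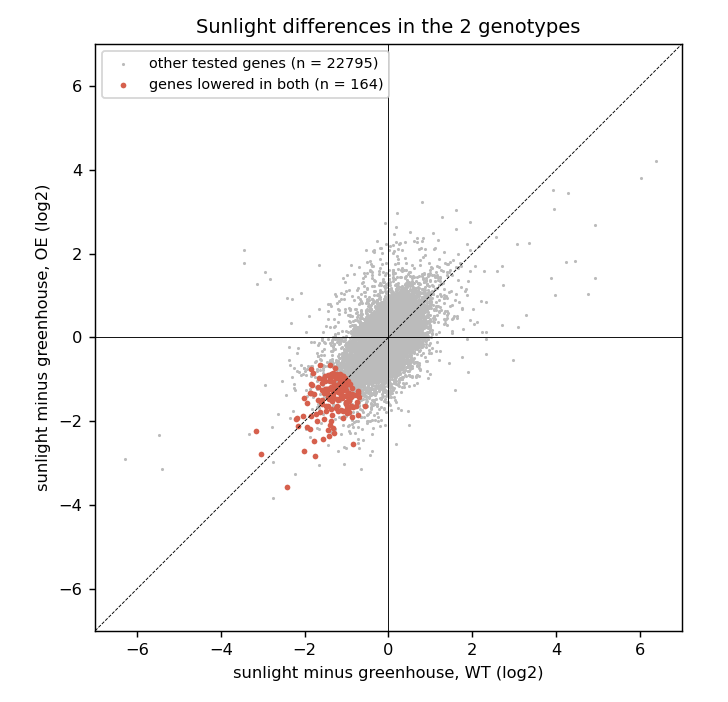
Sunlight minus greenhouse difference (log2) in WT on the x axis and in OE on the y axis, for the 164 genes in red and the other 22795 tested genes in grey. The dashed line marks equal differences. The red points lie below 0 on both axes because they were chosen so, and they scatter to both sides of the line.

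The largest mean fall was that of Potra002232g17151, 7.96-fold. In WT it stood at 46.3, 67.0 and 60.6 CPM indoors and at 10.6, 8.33 and 12.3 CPM outdoors. In OE it stood at 101, 164 and 88.8 CPM indoors and at 6.38, 12.6 and 9.59 CPM outdoors. All 3 OE greenhouse libraries were above all WT greenhouse libraries, while the sunlight libraries of the genotypes overlapped. The fall was 5.37-fold in WT and 11.8-fold in OE, or 9.82-fold in OE without OE greenhouse 3.

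Potra002464g18665 followed with a mean fall of 7.53-fold. WT plants had 181, 161 and 137 CPM indoors and 12.9, 32.4 and 15.8 CPM outdoors. OE plants had 376, 152 and 263 CPM indoors and 22.0, 43.6 and 46.1 CPM outdoors. Here OE greenhouse 3 was the lowest library of its group. The fall was 8.23-fold in WT and 6.89-fold in OE, or 8.78-fold in OE without that library. In WT the fall was 8.85-fold without WT greenhouse 5, so the order of the genotypes depends on which libraries are included.

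Potra003920g23522 fell 8.93-fold in WT and 4.67-fold in OE. Its WT levels were 31.2, 47.1 and 48.0 CPM indoors and 1.96, 4.36 and 8.10 CPM outdoors. The OE levels were 30.8, 43.3 and 26.6 CPM and then 3.35, 7.86 and 10.9 CPM. Both genotypes overlapped in the greenhouse and again in sunlight, and the OE fall was 4.07-fold without OE greenhouse 3.

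Potra197910g29268, with a mean fall of 5.14-fold, was a gene of few reads. Over the 3 libraries of a group, its counts were 86 indoors and 25 outdoors for WT, and 315 and 23 for OE. Its WT levels were 3.64, 3.11 and 2.05 CPM against 0.203, 0.128 and 0.840 CPM, and its OE levels 2.08, 8.19 and 9.07 CPM against 0.160, 0.546 and 0.586 CPM. The mean difference of -2.36 (log2) was -3.19 with a pseudocount of 0.1 CPM and -1.36 with one of 2 CPM.

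In Potra001841g14788 and Potra177133g27936 a single library carried much of the OE value. Potra001841g14788 was at 15.5, 13.4 and 10.1 CPM in WT indoors and 2.23, 5.12 and 3.48 outdoors, and at 9.88, 36.2 and 13.1 in OE indoors and 1.12, 2.07 and 2.90 outdoors. Potra177133g27936 was at 13.8, 12.3 and 6.44 CPM in WT indoors and 1.15, 3.52 and 1.47 outdoors, and at 6.42, 33.3 and 6.97 in OE indoors and 1.44, 3.71 and 3.28 outdoors. The high value is OE greenhouse 3 in both genes. Without it the OE fall went from 7.15-fold to 4.91-fold in Potra001841g14788 and from 3.84-fold to 2.29-fold in Potra177133g27936.

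Over all libraries, Potra000697g05429 fell by much the same factor in both genotypes, 4.44-fold in WT and 4.33-fold in OE. That likeness depends on single libraries: the WT fall was 5.49-fold without WT greenhouse 5, and the OE fall 3.18-fold without OE greenhouse 3. The gene was at 77.9, 88.9 and 43.8 CPM in WT indoors and 10.6, 13.1 and 23.0 outdoors, and at 33.9, 121 and 67.3 in OE indoors and 12.1, 19.7 and 13.2 outdoors. Potra001652g13550 was at 55.9, 117 and 97.3 CPM in WT indoors and 16.3, 52.1 and 17.8 outdoors, and at 102, 113 and 117 in OE indoors and 15.5, 27.1 and 17.7 outdoors. In WT the highest sunlight library of Potra001652g13550 came within 4 CPM of its lowest greenhouse library, whereas in OE its libraries stood well apart.

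**Figure D3:**
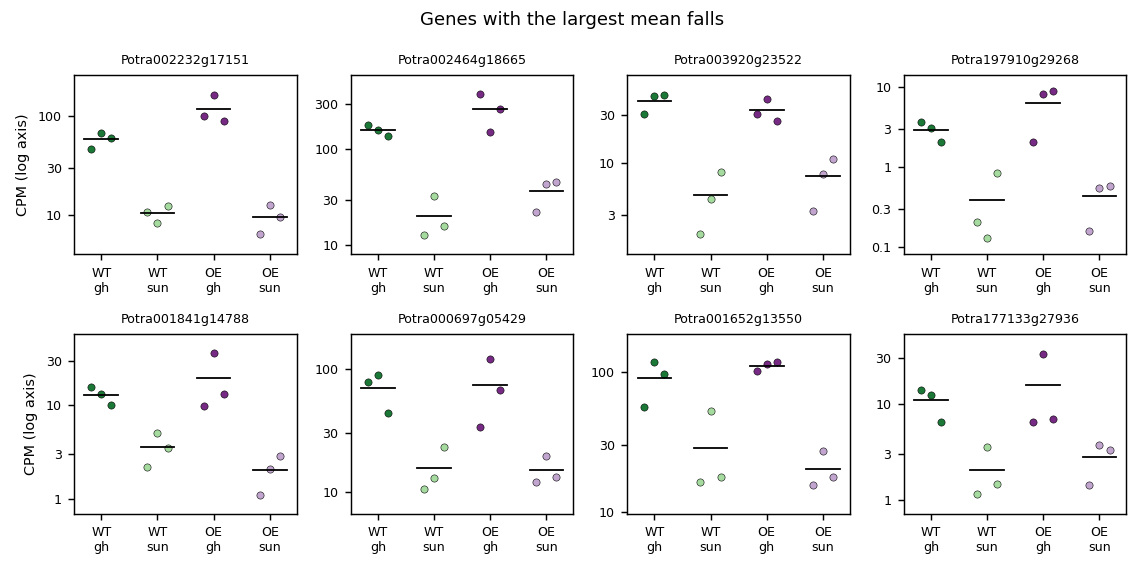
CPM on a log axis in each library for the 8 genes with the largest mean falls, by group (gh, greenhouse; sun, sunlight). Points are libraries and lines are group means. In each panel the sunlight points of a genotype lie below its greenhouse points, and the distance between the groups differs from gene to gene.

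A few genes took a large part of the reads. The 6 with the highest mean CPM held 27.4% of the summed CPM of all 164 in WT indoors and 31.4% outdoors, and 34.8% and 32.9% in OE. Potra000950g07790 had the most reads, at 712, 894 and 658 CPM in WT indoors and 355, 299 and 548 CPM outdoors. In OE it was at 568, 1228 and 784 CPM indoors and 260.3, 376 and 345 CPM outdoors. Its fall was 1.93-fold in WT and 2.53-fold in OE, or 2.06-fold in OE without OE greenhouse 3.

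Potra000991g08210 and Potra000782g06165 showed one library far from the others. Potra000991g08210 was at 404, 1500.0 and 399 CPM in OE greenhouse, beside 273, 361 and 341 CPM in WT greenhouse. In sunlight it was at 113, 172 and 228 CPM in WT and 186, 260.5 and 252 CPM in OE. Potra000782g06165 was at 279, 1506 and 338 CPM in OE greenhouse, beside 231, 395 and 340.2 CPM in WT greenhouse. In sunlight it was at 113, 85.0 and 131 CPM in WT and 165, 132 and 111 CPM in OE. OE greenhouse 3 is the high library in both, and the other OE greenhouse libraries were far below it. Without it the OE fall of Potra000991g08210 was 1.74-fold in place of 2.70-fold, and that of Potra000782g06165 was 2.28-fold in place of 3.88-fold.

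The other 3 of the 6 had no such excess. Potra001566g12943 was at 294, 344 and 324 CPM in WT indoors and 182, 139 and 227 outdoors, and at 548, 614 and 499 in OE indoors and 209, 237 and 197 outdoors. Potra170594g27527 was at 336, 392 and 444 CPM in WT indoors and 174, 205 and 166 outdoors, and at 423, 568 and 322 in OE indoors and 182, 244 and 221 outdoors. Potra198144g29288 was at 362, 339 and 402 CPM in WT indoors and 120.1, 178 and 119.5 outdoors, and at 526, 209 and 454 in OE indoors and 147, 120.3 and 163 outdoors. In Potra198144g29288, OE greenhouse 3 was instead the lowest of its group, and the OE fall of 2.58-fold was 3.42-fold without it.

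OE greenhouse 3 was the highest of the 12 libraries in 74 of the 164 genes. The rule lets only greenhouse libraries be the highest, and the share over all tested genes was not counted. Within its group, OE greenhouse 3 was the highest in 98 genes (59.8%), beside 41.0% of all tested genes. It lay above the mean of OE greenhouse 1 and 5 by a median of 1.32-fold, against a shift of 0.001 (log2) over all tested genes. In 29 genes (17.7%) it was at least 2-fold above them, beside 4.64% of tested genes, and in 4 genes (2.44%) at least 2-fold below them, beside 5.82%. The highest ratios were 5.04-fold in Potra001586g13105, 4.89-fold in Potra000782g06165 and 4.70-fold in Potra177133g27936, genes picked after their values were seen. Potra001586g13105 was at 1.94, 3.57 and 7.29 CPM in WT indoors and 0.810, 1.6 and 0.756 outdoors, and at 1.57, 10.3 and 1.72 in OE indoors and 0.798, 0.655 and 0.586 outdoors. Its mean difference was -1.57 (log2), and -0.96 when OE greenhouse 3 and WT greenhouse 5 were both omitted. The rule reads the OE greenhouse mean, so a gene that is high in OE greenhouse 3 meets it more easily. The same library was therefore also read in 335 genes chosen by WT libraries alone, described further below. There its median ratio was 0.887-fold, 34 genes (10.1%) were at least 2-fold above and 67 genes (20.0%) at least 2-fold below.

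**Figure D4:**
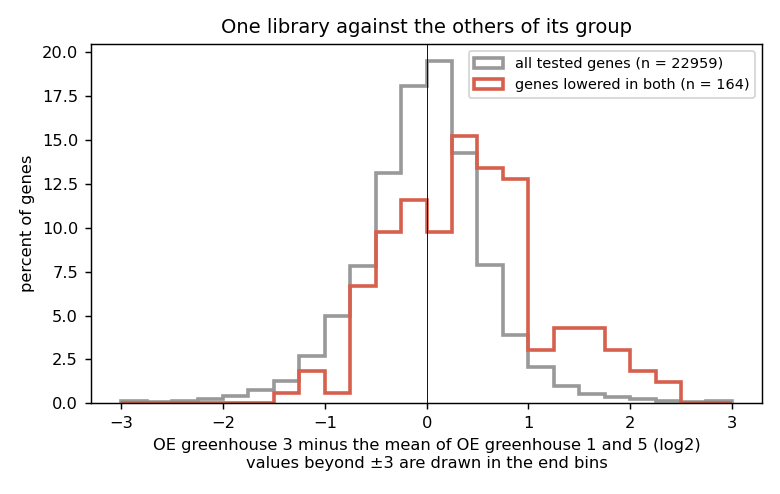
Distribution of the difference (log2) between OE greenhouse 3 and the mean of OE greenhouse 1 and 5, as percent of genes, for the 164 genes in red and all tested genes in grey. The red curve lies to the right of the grey one and has a second rise beyond 1, which holds 29 genes.

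The 29 genes with a high OE greenhouse 3 summed to 1564, 5845 and 1780.1 CPM in the OE greenhouse libraries and to 1532, 1983 and 1738 CPM in those of WT. In sunlight they summed to 822, 883 and 775 CPM in OE and 575, 736 and 865 CPM in WT. Their median OE difference was -1.65 (log2) with OE greenhouse 3 and -1.11 without it, beside -1.22 in WT. These genes were picked on OE greenhouse 3 itself, so its high sum and the smaller OE fall without it follow from that choice. The other 135 genes had median differences of -1.27 in WT and -1.25 in OE, and the latter was -1.20 without OE greenhouse 3. Leaving out that library when applying the rule gave 174 genes, of which 130 were among the 164.

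WT sunlight 2 stood out in the other direction. It was the lowest WT sunlight library in 99 of the 164 genes (60.4%), beside 26.5% of all tested genes. Its median distance from the mean of WT sunlight 4 and 6 was -0.34 (log2), against 0.01 over all tested genes. In 490 genes chosen by OE libraries alone, on which no WT library had a part, it was the lowest of its group in 48.4% and its median distance was -0.31. Without WT sunlight 2 the rule gave 149 genes, 134 of them among the 164. Among the OE sunlight libraries, OE sunlight 2, 4 and 6 were the lowest in 74, 61 and 29 of the 164 genes, and their median levels lay at 6.06, 6.11 and 6.21 CPM.

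Within groups the median SD of the 164 genes was above that of all tested genes. The rule used the same library values and the genes were not matched for level, so this is a description. Their median SD of log2(CPM + 0.5) over 3 libraries was 0.33 in WT greenhouse, 0.37 in WT sunlight, 0.42 in OE greenhouse and 0.30 in OE sunlight. Over all tested genes it was 0.18, 0.19, 0.26 and 0.20. The distance between the lowest greenhouse and the highest sunlight library of a gene had a median of 0.57 (log2) in WT and 0.58 in OE. In 41 genes this distance was at least 1.5-fold in both genotypes. It was under 1.1-fold in WT for 15 genes and in OE for 12, so in those the groups were barely apart.

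The genotypes were then set side by side. The fall was larger in OE in 87 genes and larger in WT in 77, and without OE greenhouse 3 it was larger in OE in 68. The median of the OE difference minus the WT difference was -0.02 (log2), with quartiles of -0.42 and 0.21. In 110 genes the differences were within 0.5 of each other, and in 7 they were 1 or more apart. Whether the sunlight effect differed between genotypes was fitted with limma, a linear model over all tested genes. Of the 164 genes, and of all tested genes, none passed an adjusted p under 0.05 (0% of tested genes), with smallest adjusted p of 0.818 and 0.557, and limma-trend also called none. At an unadjusted p under 0.05 there were 10 of the 164 (6.1%), beside 6% of tested genes. The standard error of this difference had a median of 0.48 (log2) over the 164 genes, and the rule itself limits the size of the difference, so nothing is read from these counts.

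Potra000573g04253 had the largest excess of the OE fall, at 1.8-fold in WT and 5.88-fold in OE, or 4.13-fold without OE greenhouse 3. It was at 2.55, 4.15 and 2.76 CPM in WT indoors and 1.08, 1.79 and 1.68 outdoors, and at 3.97, 11.9 and 3.68 in OE indoors and 0.160, 0.873 and 0.759 outdoors. Its mean difference of -1.70 (log2) was -1.07 with a pseudocount of 2 CPM. Next came Potra002232g17151, given above, and Potra001064g09139. The latter was at 44.2, 32.2 and 28.0 CPM in WT indoors and 15.9, 22.5 and 23.9 outdoors, and at 32.2, 52.2 and 46.4 in OE indoors and 6.22, 17.6 and 13.9 outdoors. Its fall was 1.65-fold in WT and 3.58-fold in OE, and the libraries of the genotypes overlapped in both conditions.

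In the opposite sense, Potra002275g17439 fell 3.62-fold in WT and 1.69-fold in OE. It was at 11.8, 6.79 and 6.22 CPM in WT indoors and 1.28, 1.54 and 2.98 outdoors, and at 3.90, 3.91 and 4.34 in OE indoors and 1.44, 3.38 and 2.1 outdoors. All its OE greenhouse libraries lay below those of WT, while in sunlight the genotypes overlapped. Potra001642g13481 fell 3.51-fold in WT and 1.81-fold in OE. It was at 7.16, 11.5 and 13 CPM in WT indoors and 2.50, 2.69 and 2.52 outdoors, and at 9.76, 10.1 and 8.02 in OE indoors and 4.31, 5.24 and 5.17 outdoors. In that gene the genotypes overlapped in the greenhouse and the OE libraries lay above those of WT in sunlight.

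Between OE and WT the 164 genes differed little, which the rule asks for. The median difference was 0.10 (log2) in the greenhouse, or -0.07 without OE greenhouse 3, and -0.02 in sunlight. In the greenhouse 90 genes were higher in OE, or 71 without OE greenhouse 3, and in sunlight 73. By limma, 4 genes were called lower and 2 higher in OE greenhouse, beside 2.49% and 2.28% of all tested genes. The rule had already removed genes with a difference of 1 or more, so the counts are a description and are not read against those shares. The genes were Potra000803g06376, Potra000886g07153, Potra001346g11556 and Potra003956g23750, lower, and Potra001566g12943 and Potra002232g17151, higher, named after their values were seen. In these 6 the greenhouse libraries of the genotypes did not overlap: Potra000886g07153, for one, was at 5.46, 4.95 and 5.66 CPM in WT and 2.64, 2.67 and 2.15 CPM in OE. The count of 6 was 3 without WT greenhouse 1, 3 without WT greenhouse 3, and 1 without WT greenhouse 5. Of these, 2, 2 and 0 were among the 6. In sunlight none was called lower, beside 0.88% of all tested genes, and 1 higher, beside 0.366%.

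The gene called higher in OE in sunlight was Potra004137g24606, at 64.9, 59.0 and 56.5 CPM in WT and 114, 99.7 and 83.4 CPM in OE. Indoors it was at 198, 158 and 209 CPM in WT and 168, 153 and 148 CPM in OE, with the genotypes overlapping. Its fall was 3.10-fold in WT and 1.58-fold in OE. No gene of the 164 was called for OE in sunlight when WT sunlight 2, 4 or 6 or OE sunlight 2 or 4 was left out. Without WT greenhouse 1 the count was 2, and without OE greenhouse 3 it was 3.

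For sunlight itself, limma at an adjusted p under 0.05 called 62 of the 164 genes lower in WT, beside 0.767% of all tested genes, and 90 lower in OE, beside 1.98%. The rule used these contrasts, so the counts only describe how many of the chosen genes also passed the threshold: 50 in both genotypes, 12 in WT alone, 40 in OE alone and 62 in neither. With WT greenhouse 1, 3 or 5 left out, 33, 12 or 14 were called in WT, and with WT sunlight 2, 4 or 6 left out, 12, 41 or 34. The WT count was 106 without OE greenhouse 3 and 36 and 31 without OE sunlight 2 and 6, libraries that share the estimate of the spread. The OE count was 45, 26 and 14 without OE sunlight 2, 4 and 6, and 16 when the OE libraries were fitted alone. In that last fit 26 of 22126 tested genes were called lower in all. For the fits with a library left out, here and for OE against WT, calls over all tested genes were not counted. The changes in these counts are therefore not read as a trait of the 164 genes. Over all tested genes, the sunlight libraries lay wholly below the greenhouse libraries in 11.7% in WT, in 14.3% in OE and in 4.68% in both.

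To read a sunlight difference in libraries that had no part in the choice, genes were chosen on one genotype and read in the other. The WT libraries alone gave 335 genes with at least 2 CPM, a fall of at least 2-fold and no overlap. In the OE libraries 319 of these (95.2%) were lower in sunlight, beside 51.4% of all tested genes. Their median OE difference was -0.91 (log2), with quartiles of -1.31 and -0.56, beside -0.01 over all tested genes. In 190 of them (56.7%, beside 14.3% of tested genes) all 3 OE sunlight libraries lay below all 3 OE greenhouse libraries, and 142 (42.4%) fell at least 2-fold in OE, beside 2.96% of tested genes. One gene rose at least 2-fold. By limma 86 (25.7%) were called lower in OE, beside 1.98% of tested genes, and 13 when the OE libraries were fitted alone, where 26 genes were called lower in all. The 86 come from a fit of all 12 libraries, so the WT libraries used for choosing share in its estimate of the spread. Of these 2 counts, only the 13 has an estimate of the spread that is free of the WT libraries. The TMM scaling was set over all 12 libraries. Without OE greenhouse 3, 329 of the 335 were lower in OE and the median was -0.98.

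The reverse choice gave 490 genes from the OE libraries alone. In WT 457 of them (93.3%) were lower in sunlight, beside 48.9% of all tested genes, with a median difference of -0.70 and quartiles of -1.10 and -0.37. The WT libraries did not overlap in 223 (45.5%, beside 11.7% of tested genes), and 145 (29.6%) fell at least 2-fold in WT, beside 2.21% of tested genes. By limma 52 (10.6%) were called lower in WT, beside 0.767% of tested genes, or 47 when the WT libraries were fitted alone, where 148 genes were called lower in all. Here too the OE libraries used for choosing share in the spread behind the 52, but not in that behind the 47. In both directions the median fall was smaller in the genotype in which it was read than in the one used for choosing. In the latter it was -1.31 for WT and -1.32 for OE. The choice asked for a fall of at least 2-fold there, which by itself favours that order, so nothing is read from it. Of the 164 genes, 133 (81.1%) were among the 335, where they made up 39.7%, and 132 (80.5%) were among the 490, where they made up 26.9%. The genotypes share no library, but the outdoor week was common to both sunlight groups. That both genotypes shared falls was known from earlier work on these data.

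**Figure D5:**
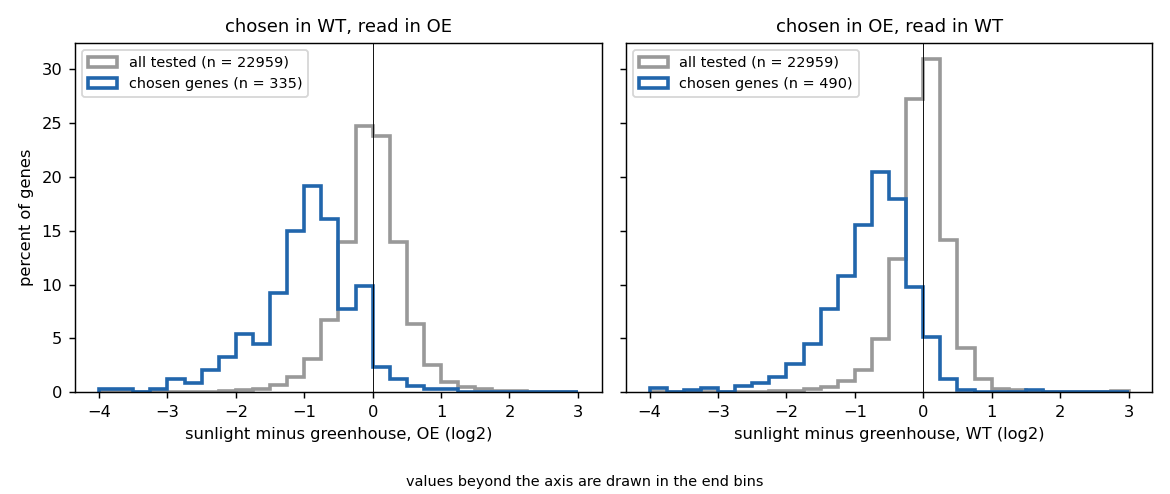
Sunlight minus greenhouse difference (log2), as percent of genes, for genes chosen on WT libraries and read in OE (left, n = 335) and the reverse (right, n = 490), each beside all 22959 tested genes in grey. The chosen genes centre at -0.91 and -0.70, and nearly all lie below 0.

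The IDs of the 164 genes begin with a number that several genes can share. The sources used here do not say what that number stands for. The genes fell on 160 such numbers, of which 4 held a pair and none held more. Potra001813g14646 and Potra001813g14647 also carry consecutive second numbers. The first was at 14.9, 8.41 and 7.14 CPM in WT indoors and 5.00, 6.28 and 5.33 outdoors, and at 14.1, 24.9 and 13.4 in OE indoors and 4.95, 5.79 and 5.59 outdoors. The second was at 28.0, 29.0 and 15.7 CPM in WT indoors and 9.18, 13.1 and 6.25 outdoors, and at 36.9, 29.5 and 28.7 in OE indoors and 6.22, 5.79 and 8.0 outdoors. Both fell more in OE than in WT, 2.91-fold against 1.69-fold and 4.50-fold against 2.49-fold. The OE falls were 2.40-fold and 4.65-fold without OE greenhouse 3, and the WT falls 1.95-fold and 3.02-fold without WT greenhouse 5.

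In the pair Potra004137g24601 and Potra004137g24606 the fall was larger in WT for each gene. Potra004137g24601 was at 31.2, 39.2 and 69.7 CPM in WT indoors and 11.7, 19.7 and 10.4 outdoors, and at 33.1, 19.0 and 19.9 in OE indoors and 11.5, 7.53 and 11.6 outdoors. Its fall was 3.21-fold in WT, or 2.55-fold without WT greenhouse 5, and 2.25-fold in OE, or 2.49-fold without OE greenhouse 3. Potra001733g14102 and Potra001733g14107 fell 2.33-fold and 2.21-fold in WT and 1.84-fold and 2.03-fold in OE, at mean WT greenhouse levels of 193 ± 67.4 and 3.76 ± 0.929 CPM (SD, n = 3). In the fourth pair the genes went opposite ways in their genotype difference: Potra000438g02394 fell 2.62-fold in WT and 1.57-fold in OE, and Potra000438g32635 fell 1.98-fold in WT and 3.51-fold in OE. The latter rested on 13 counts in WT sunlight and 10 in OE sunlight, and its mean difference of -1.40 (log2) was -2.20 with a pseudocount of 0.1 CPM and -0.66 with one of 2 CPM.

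Other genes with the same first number were read as well. Of 997 tested ones, 14 (1.40%) fell at least 2-fold on average over the genotypes, beside 1.18% of all tested genes other than the 164. Their median mean difference was -0.03 (log2), and 55.2% were lower in sunlight on average, beside 50.3%. In 43 (4.31%) the sunlight libraries lay wholly below the greenhouse libraries in both genotypes, beside 4.0%. These genes were compared without a test.

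The same rule with every direction turned round gave 84 genes higher in sunlight. Their median mean difference was 1.25 (log2), against -1.28 for the lowered genes. The largest rise was 3.51 and the largest fall -2.99, both among genes within the OE limit. Lowered genes that only this limit kept out reached -4.59, and the like value for raised genes is not given here. These extremes are therefore not a comparison of rises and falls at large.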

How the data were processed

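Per the submitters' processing notes, TopHat2 2.1.1, Cufflinks and HTSeq 0.6.1 were used, with no role stated. Each deposited table holds raw counts of reads per gene and 5 summary entries, which were left out (reads outside genes 6.85% to 32.2%, ambiguous 3.99% to 6.59%, not unique 3.73% to 5.80%). The sources used here give no genome build, annotation or use of strand, so overlapping, antisense or near-identical genes may share or lose reads. The tables are tab-separated under a comma-separated name, so their unit was recorded as "other" and count models were not run. A count of 3 is worth 0.103 to 0.479 CPM.

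The test was limma 3.58.1 (R 4.3.3) with voom weights, 12 libraries, 1 mean per group and a robust fit. TMM trimmed 30% of ratios and 5% of levels at each end. Genes needed 10 counts at the median depth (0.69 CPM) in 3 libraries and 15 in total, and p-values were adjusted by Benjamini-Hochberg over the 22959 genes tested, at 0.05. Replicate pairs differed by more than sampling noise (chi-square over degrees of freedom 12.0 to 70.3).

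Members and lists were chosen with earlier results of these data known. Named genes are the 8 largest mean falls, the 6 highest in CPM, the 3 largest genotype differences each way, the 3 on either side of the threshold, pairs sharing an ID number, and those called for OE where 5 or fewer. Lists by function were not applied, since IDs carry no names. Alternatives were scalings, pseudocounts, levels, filters, other fits, a block by replicate number and each library omitted. Leaving out both OE greenhouse 3 and WT greenhouse 5, and all alternatives for single genes and for genes chosen on 1 genotype, were added after seeing the data.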

Additional observations from a re-analysis of the deposited data

Results flagged for a closer look

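Reads outside genes are no part of the comparisons above. They were 13.06% of reads in OE sunlight 2, with an exact 95% binomial interval of 13.04% to 13.09%. OE sunlight 4 had 8.474%, with an interval of 8.458% to 8.49%. Both were above the highest WT sunlight library at 7.744%, and OE sunlight 6, at 7.55%, was below it. Only OE libraries above all WT libraries of their condition were looked for. The largest shares of all were in WT, at 16.4% in WT greenhouse 3 and 32.2% in WT greenhouse 5. The intervals cover counting error only. Single extreme libraries were not tested for, since each group holds 3.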

How the results depend on the processing

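Median-of-ratios scaling gave 164 genes, 162 of them the same. Library totals as scaling moved the median sunlight difference of all genes in WT from 0.005 to 0.23 (log2) and that of OE in the greenhouse from 0.011 to 0.23. It gave 105 genes (101 shared), 101 in place of 190 for genes chosen in WT and apart in OE, and 10 in place of 6 called for OE in the greenhouse. A pseudocount of 2 CPM gave 110 genes and a mean fall of 2 (log2) gave 11. With only the compared libraries, 16 genes were called for sunlight in OE and 1 for OE in the greenhouse. With OE greenhouse 3 and WT greenhouse 5 both omitted, 193 genes met the rule (127 shared) and 2 were called for OE in the greenhouse. The cause of these changes was not tested. Apart from sunlight in OE with the compared libraries, given above, calls over all tested genes were not counted in these fits. The changes in called counts are therefore not read as a trait of the 164 genes.

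Leaving out each library in turn gave 149 to 222 genes by the rule, 156 to 268 chosen in WT and apart in OE, and 213 to 320 the other way. The called counts ran from 12 to 106 for sunlight in WT, 14 to 96 in OE, 1 to 8 for OE in the greenhouse, 0 to 3 for OE in sunlight and 0 to 0 for the difference.

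Samples with the same number did not deviate together: the correlations of their deviations ran from -0.50 to 0.07. Between samples with different numbers they ran from -0.33 to 0.43. With 3 libraries per group, these values cannot settle whether the numbers pair the plants. With a replicate block the called counts were 10 for sunlight in WT, 30 in OE, 1 and 0 for OE in the greenhouse and in sunlight, and 0 for the difference. Of 612 recomputed differences of 36 named genes, 11 moved by more than the replicate SD, all with another pseudocount, and none changed sign.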
